A study of Mus musculus with 16 samples.

Results

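Potassium channel subunit genes carry symbols that begin with Kcn and a lower-case letter for the subfamily. The genes described here are those with at least 10 raw counts in 2 or more of 16 mouse RNA-Seq libraries. Of 98 such symbols in a table of 24411 genes, 88 met this rule, and they fall under 19 subfamily letters. The 10 symbols left out were Kcna10, Kcnd3os, Kcne1, Kcne2, Kcnj1, Kcnk15, Kcnk16, Kcnmb3, Kcns1 and Kcnv2. Of the 88 members, 85 are annotated as protein coding and 3 are antisense transcripts, Kcnq1ot1, Kcnmb4os1 and Kcnmb4os2. The symbol rule also takes in auxiliary proteins (Kcnab, Kcne, Kcnip, Kcnmb) and Kcnrg, which is named as a channel regulator and forms no pore.

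Potassium channels let potassium leave the cell and pull the membrane toward rest. In sympathetic neurons, voltage-gated channels of the Kv type shape the action potential, the M channel formed by Kcnq subunits holds back repeated firing until muscarinic receptors close it, and calcium-activated channels give the pause after a spike. Background (leak) channels of the 2-pore domain class and inward rectifiers set the resting potential, the latter in glia as well as in neurons.

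The series compared celiac ganglia of mice 2 weeks old with tumors, in the Th-MYCN model of neuroblastoma, a childhood tumor of the sympathetic lineage. Human MYCN is expressed there from the tyrosine hydroxylase promoter, on a 129/SvJ background, and the Runx1t1 allele was an insertional knockout crossed in. Ganglia without the transgene were either Runx1t1 wild-type (n = 4) or Runx1t1 heterozygous (n = 3). Ganglia homozygous for MYCN were Runx1t1 wild-type (n = 3) or heterozygous (n = 2), and the tumors (n = 4) were homozygous for MYCN and Runx1t1 wild-type. Mice of both sexes were used, and no age is given for the tumors. Tissue and age, as well as the step from ganglion to tumor, therefore cannot be told apart in comparisons with tumors. The labels do not say whether replicates were separate animals, so that p-values measure the spread between these samples.

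RNA levels are given as TPM, a read count scaled by transcript length and by the library's total, and differences as log2 fold changes fitted to the counts. Library totals ran from 10692299 to 38618757 counts, with the tumors between 27096032 and 38618757. Runx1t1 itself did not check the heterozygous labels, because it was at 2.78 to 4.41 TPM in transgene-free wild-type ganglia and at 4.36 to 6.28 in the heterozygous ones. Summed TPM of 21 sympathetic neuron markers was 12160 to 33238 in transgene-free wild-type ganglia and 5401 to 14029 in tumors, and for both tissues none of the markers was at 0 throughout. Transgene-free wild-type replicate 2 stood apart, with 510 TPM of lymphocyte markers against 0.56 to 6.67 in every other library. Tumor replicate 3 held 5835 TPM of hepatocyte markers, against 1.41 to 65.1 in the other tumors.

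The members together made up far less of the RNA in tumors than in ganglia. Their summed TPM was 803, 1438, 1626 and 1662 in transgene-free wild-type ganglia, and 402, 446, 497 and 548 in tumors. All 4 tumors lay below all 12 ganglia, of which the lowest was transgene-free wild-type replicate 2 at 803 and the next MYCN wild-type replicate 1 at 916. The ribosomal RNA precursor Rn45s took 8.57% to 12.8% of the counts in tumors, 8.80% in MYCN wild-type replicate 1 and 2.15% to 5.64% in the other ganglia. With Rn45s left out of the TPM the members' sums were 420 to 567 in tumors and 819 to 1895 in ganglia. The makeup changed as well: genes of the 2-pore class (Kcnk) were 37.1% to 43.0% of the members' TPM in tumors but 6.87% to 17.5% in ganglia. Kcnmb4, the auxiliary beta 4 subunit of the large calcium-activated channel, was 17.9% to 25.1% of the sum in transgene-free wild-type ganglia and 0.882% to 2.92% in tumors.

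**Figure D1:**
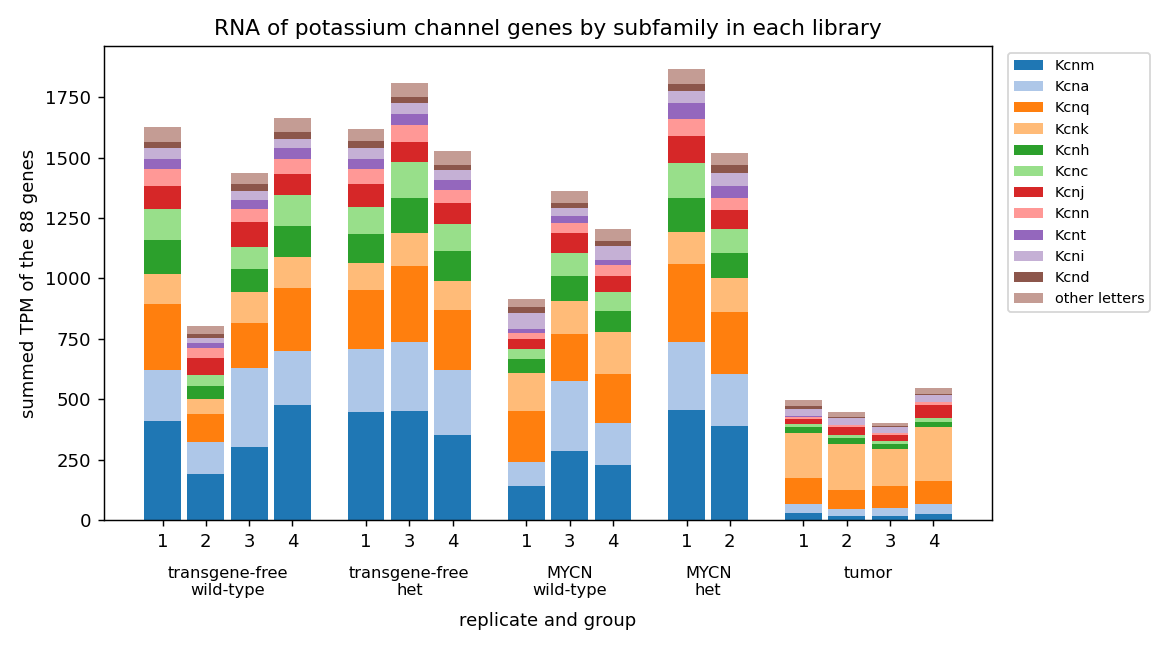
Summed TPM of the 88 potassium channel genes in each library (bars, numbered by replicate within each group), with colors for the subfamily letter. The tumors sit between 402 and 548 TPM, below every ganglion, and the Kcnk segment is the largest in each of them.

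Against transgene-free wild-type ganglia, 50 of the 87 members that passed the filter on low counts differed in tumors (edgeR quasi-likelihood test, adjusted p under 0.05), which is 57.5% where 57.7% of all 16665 genes tested did. The shares by direction were different. Lower in tumors were 39 members (44.8%, against 30.7% of all genes) and higher were 11 (12.6%, against 27% of all genes). The median log2 fold change was -1.26 for the members and -0.11 for all genes, and it was -1.25 for the members when genes with 3 counts or fewer in every library of a group were set to their bound. In TPM, all 4 tumors lay below all 12 ganglia for 30 members, where 24.5% of all genes tested did, and above them for only Kcnk1 and Kcnk9, where 6.06% of all genes did. Kcna7 was the member not tested, with 0 to 0.40 TPM in every library.

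Less RNA of a gene in a whole ganglion or tumor can mean fewer cells of a type or less RNA per cell, and these cannot be told apart in bulk samples. Cell type markers moved in the same comparison. Of 11 markers of satellite glia and Schwann cells, 10 were lower in tumors (median log2 fold change -4.98), of 21 sympathetic neuron markers 14 were lower and 4 higher (median -1.41), and all 6 proliferation markers were higher (median 4.19). Of the other lists, 6 of 7 fibroblast, 5 of 6 endothelial, 5 of 6 adrenal cortex, 3 of 9 pericyte and smooth muscle and 2 of 5 lymphocyte markers were lower, and 1 fibroblast marker was higher. Of 7 macrophage markers 1 was higher and 1 lower (summed TPM 137 to 437 in tumors and 47.5 to 603 in transgene-free wild-type ganglia), and of 4 chromaffin markers 2 were higher and 1 lower (563 to 1850 and 344 to 1178). Of 4 hepatocyte markers 1 was higher, and of 4 skeletal muscle markers 1 was lower. Their part in the changes of the channel genes was not tested.

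**Figure D2:**
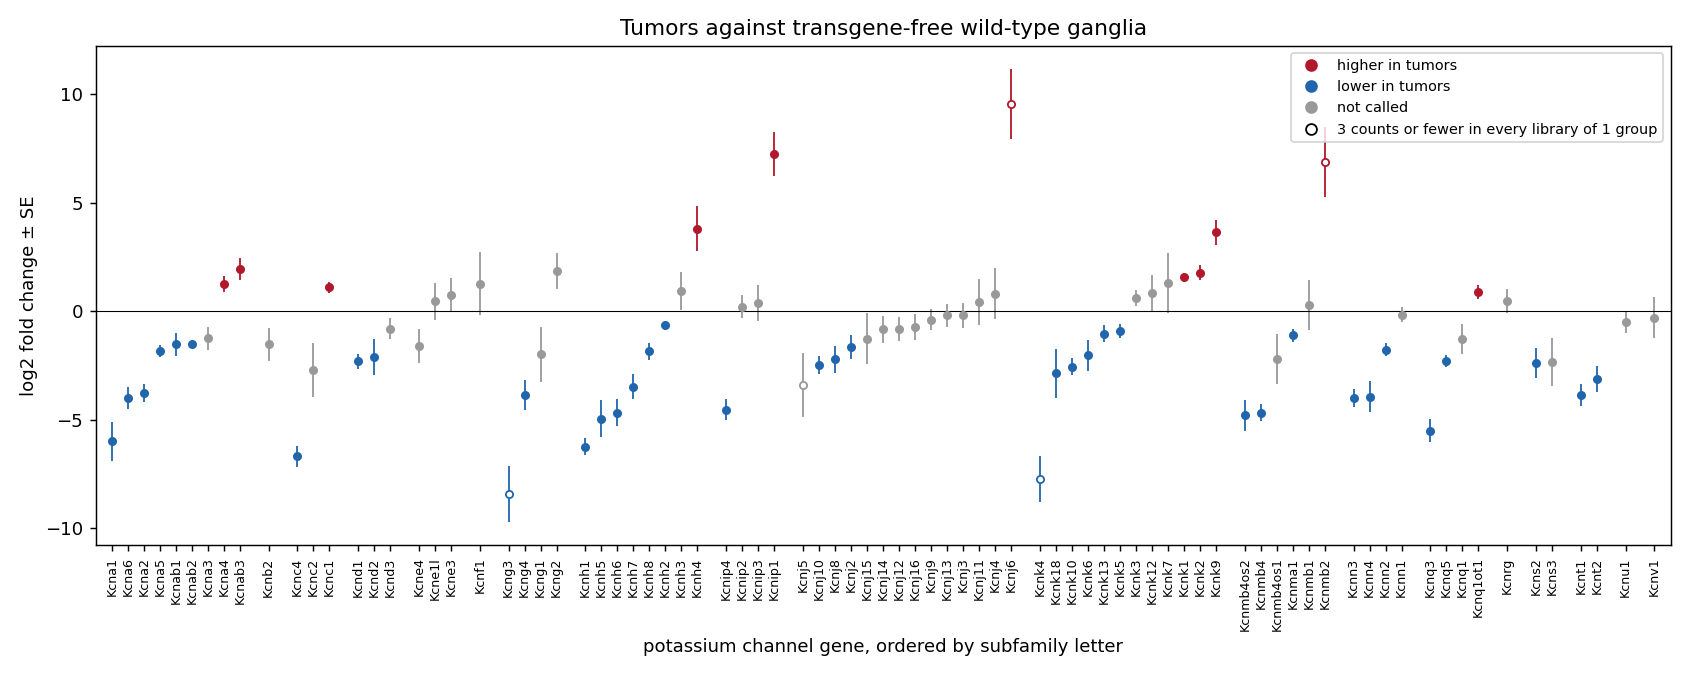
Log2 fold change with its standard error (bars) for 83 of the 87 tested members, tumors (n = 4) against transgene-free wild-type ganglia (n = 4), ordered by subfamily letter. Red and blue points passed the test, 11 above and 38 below 0, and open symbols mark fitted values that rest on a group with at most 3 counts in every library.

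Of 18 tested genes of the classical voltage-gated subfamilies (letters a to d, beta subunits included), 10 were lower in tumors, 3 were higher and 5 were not called, where 30.7% of all genes were lower and 27% higher. Kcnc4, which encodes Kv3.4, was at 111.86, 36.61, 81.68 and 116.98 TPM in transgene-free wild-type replicates 1 to 4, and at 0.32, 0.48, 0.63 and 1.03 TPM in the tumors. No tumor came near any ganglion, and the fall was -6.68 ± 0.48 (log2 fold change ± SE, adjusted p = 5.7e-07). Within the same subfamily, Kcnc1 (Kv3.1) was higher in tumors at 1.11 ± 0.26 (adjusted p = 0.0025), with means of 5.25 and 3.35 TPM, a call that was lost on the log2(TPM + 1) scale.

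The Kv1 alpha subunits Kcna1 and Kcna2, which sit at axons and their initial segments, were both lower. Kcna1 was at 10.76 to 79.62 TPM in transgene-free wild-type ganglia and at 0.06 to 0.66 TPM in tumors, a log2 fold change of -5.99 ± 0.91 (adjusted p = 9.7e-05), or -5.09 without transgene-free wild-type replicate 3, which held the highest value. Kcna2 had means of 37.7 ± 19.4 and 2.02 ± 0.498 TPM (-3.78 ± 0.41). Kcna6, the most abundant of the alpha subunits of this letter, had means of 62.8 ± 30.2 and 2.90 ± 1.46 TPM (-4.01 ± 0.50). Kcna5 was lower as well (-1.83 ± 0.28), while Kcna3 was not called (-1.25 ± 0.53, adjusted p = 0.059). Kcna4 went the other way, with 3.29 to 6.96 TPM in tumors and 1.27 to 3.55 in transgene-free wild-type ganglia (1.27 ± 0.38, adjusted p = 0.010), while MYCN wild-type replicates 1 (3.37) and 4 (4.52) and MYCN het replicate 2 (4.51) lay within the range of the tumors. This call was lost when only libraries over 20000000 counts were used and on the log2(TPM + 1) scale. Of the cytoplasmic beta subunits, Kcnab2 was lower (-1.51 ± 0.20, means of 63.2 and 16.6 TPM) and Kcnab3 was higher (1.95 ± 0.52). Kcnab1 was lower at -1.52 ± 0.53, a call that was lost without transgene-free wild-type replicate 1 or tumor replicate 1 or 3.

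Kcnb2, a delayed rectifier subunit, had means of 8.91 and 2.29 TPM and was not called (adjusted p = 0.10), the tumors spreading from 0.06 to 5.43 TPM. Of the A-type Kv4 subunits, Kcnd1 (-2.30 ± 0.34) and Kcnd2 (-2.11 ± 0.83, adjusted p = 0.042) were lower and Kcnd3 was not called (-0.80 ± 0.50). The Kcnd2 call was weak: it was lost without transgene-free wild-type replicate 1, 3 or 4 or tumor replicate 3 or 4, and the change was -3.39 without tumor replicate 1. Kcnip4, a calcium sensor that binds Kv4 channels, was at 15.84 to 42.42 TPM in transgene-free wild-type ganglia and 0.38 to 2.25 in tumors (-4.54 ± 0.47), whereas Kcnip2 and Kcnip3 were not called.

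Proteins that travel with these channels, from a list of 30 partners of which 29 were tested, were lower in 18 cases and higher in 3, where 30.7% and 27% of all genes were, with a median log2 fold change of -0.81 against -0.11 for all genes. Dpp10 and Dpp6 (-2.02 ± 0.24), transmembrane partners of Kv4, fell, as did Kcnd1 and Kcnip4. Dpp10 was near 0 in tumors (mean of 0.0025 TPM, against 1.79 in transgene-free wild-type ganglia). Its fitted change of -8.01 ± 0.89, or -9.31 without tumor replicate 2, therefore gives a direction and not an exact size. Lgi1 (-5.18 ± 0.59, or -5.97 without tumor replicate 4), Cntn2 (-2.42 ± 0.40) and Cntnap2 (-2.16 ± 0.41), which belong to the Kv1 complexes of the axon, fell as well. The 3 that rose were Abcc8 (3.20 ± 0.59), Lrrc26 (1.66 ± 0.66) and Akap5 (1.24 ± 0.29). The call of Lrrc26 was lost without transgene-free wild-type replicate 1, 2 or 4 or tumor replicate 1, 3 or 4 (adjusted p up to 0.11).

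The Kcnh subfamily, which holds the eag, erg and elk channels, had 6 of its 8 tested members lower and 1 higher (30.7% and 27% of all genes), the call of Kcnh2 among the 6 being weak. Kcnh1 (eag1) was at 20.9, 11.24, 14.25 and 27.82 TPM in the transgene-free wild-type ganglia and at 0.18, 0.13, 0.31 and 0.12 TPM in the tumors. The groups were far apart and the tumors were tightly placed, giving -6.24 ± 0.39 (adjusted p = 1.9e-07), the smallest adjusted p of any member in this comparison. Kcnh5 (eag2), Kcnh6 (erg2) and Kcnh7 (erg3) fell by 4.96, 4.68 and 3.48 on the log2 scale, and without tumor replicate 2 the values for Kcnh5 and Kcnh6 were -5.57 and -5.30, and without tumor replicate 1 that for Kcnh7 was -4.07.

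Kcnh2 (erg1) differed from the other erg genes in its level in tumors. It was at 12.11 to 17.68 TPM there and at 16.24 to 42.65 TPM in transgene-free wild-type ganglia, so that the groups overlapped. Its change of -0.66 ± 0.23 (adjusted p = 0.025) was lost without transgene-free wild-type replicate 1 or 4 or tumor replicate 1, and under 3 other alternatives (adjusted p up to 0.13). Kcnh8 was lower at -1.85 ± 0.39 and Kcnh3 was not called. Kcnh4 was the member that rose, and it is described with the MYCN ganglia below.

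Of the M channel subunits, Kcnq3 was at 105.52, 56.58, 83.5 and 118 TPM in transgene-free wild-type ganglia and at 3.55, 1.07, 0.85 and 0.53 TPM in tumors. Every tumor was below every ganglion, with a log2 fold change of -5.50 ± 0.51 (adjusted p = 3.2e-06), or -6.35 without tumor replicate 1, the tumor that kept the most. Kcnq5 fell from 30.2 ± 11.9 to 4.54 ± 0.695 TPM (-2.30 ± 0.28).

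Chrm1, the muscarinic M1 receptor that closes the M channel, fell with Kcnq3 (-6.33 ± 0.56). Kcnq3 lies at chr15:65986387-66286642 on the minus strand of GRCm38. Kcnq1ot1, a long antisense transcript inside Kcnq1, was slightly higher (0.88 ± 0.31), and its call was lost under 7 alternatives, among them without transgene-free wild-type replicate 1 or 4 or tumor replicate 1 or 3.

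**Figure D3:**
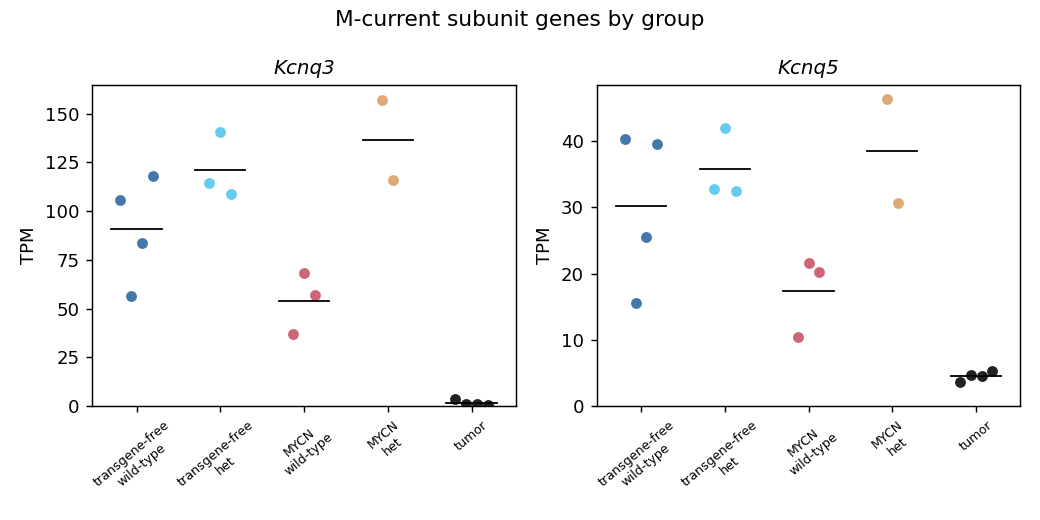
TPM of the M channel genes Kcnq3 and Kcnq5 in each library (points) with the group mean (lines), for the 5 groups. In tumors Kcnq3 is at 0.53 to 3.55 TPM and Kcnq5 has a mean of 4.54, both below every ganglion.

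Of 12 tested genes of the calcium-activated and sodium-activated channels (letters m, n and t), 8 were lower in tumors and 1, Kcnmb2, was higher (30.7% and 27% of all genes). Without the antisense transcripts Kcnmb4os1 and Kcnmb4os2 these were 7 and 1 of 10. Kcnmb4 had the highest mean level of all members in transgene-free wild-type ganglia, at 346.15, 163.97, 257.04 and 417.09 TPM in the 4 libraries, and had 14.54, 7.78, 6.4 and 4.83 TPM in the tumors. Kcnmb4 changed by -4.69 ± 0.39 (adjusted p = 1.4e-06), and Kcnma1, the pore-forming subunit it binds, by -1.11 ± 0.28 (means of 36.8 and 11.9 TPM). Kcnmb4os2, an antisense transcript that overlaps the start of Kcnmb4, was lower by a similar amount (-4.80 ± 0.73, or -5.58 without tumor replicate 2). Whether reads were counted by strand is not given in the sources used here, so reads from Kcnmb4 and its antisense partner may not be separated.

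Of the small-conductance channels, which calcium opens, Kcnn3 fell from 23.0 ± 10.4 to 1.04 ± 0.441 TPM (-4.02 ± 0.41) and Kcnn2 from 19.4 ± 6.43 to 4.20 ± 0.898 TPM (-1.77 ± 0.30). Kcnn1 was not called (-0.17 ± 0.35). Kcnn4, the intermediate-conductance channel of lymphocytes and other non-neuronal cells, was lower at -3.95 ± 0.72. In ganglia its highest value, 19.17 TPM, was in transgene-free wild-type replicate 2, the library with the lymphocyte markers, and without it the change was -3.16. Both sodium-activated channel genes were lower, Kcnt1 from 34.3 ± 8.74 to 1.76 ± 1.67 TPM (-3.86 ± 0.51, or -4.73 without tumor replicate 1) and Kcnt2 at -3.13 ± 0.59. Lrrc55, a partner of the large calcium-activated channel, fell too (-5.26 ± 0.54).

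Of 12 tested 2-pore domain genes, 3 were higher and 6 lower in tumors, where 27% and 30.7% of all genes were. Kcnk9 (TASK3), an acid-sensitive leak channel, was at 25.14, 3.66, 12.43 and 8.11 TPM in transgene-free wild-type ganglia and at 122.93, 109.8, 79.09 and 136.9 TPM in tumors. Every tumor was above all 12 ganglia, and Kcnk9 was the most abundant member in tumors, with a log2 fold change of 3.65 ± 0.58 (adjusted p = 1.3e-04), or 4.23 without transgene-free wild-type replicate 1. Its gene lies at chr15:72501089-72546340 of GRCm38, minus strand. Kcnk1 (TWIK1) was at 17.7, 17.4, 15.84 and 17.65 TPM in tumors and at 6.09 to 8.58 TPM in the same ganglia, again above all 12 ganglia (1.56 ± 0.19, adjusted p = 2.4e-05). Kcnk2 (TREK1), which opens with stretch and fatty acids, had means of 12.5 ± 4.27 and 4.80 ± 1.37 TPM (1.78 ± 0.36).

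Its closest relatives moved the other way. Kcnk10 (TREK2) was at 43.05, 14.75, 30.55 and 61.75 TPM in transgene-free wild-type ganglia and at 6.71, 2.52, 4.12 and 5.56 TPM in tumors, with no overlap (-2.55 ± 0.37, adjusted p = 7.1e-05). Kcnk4 (TRAAK), the remaining member of the TREK group, had no count in any tumor and 5 to 31 counts in these ganglia, which makes it at least 11.2-fold lower against a floor of 3 counts per library (adjusted p = 1.2e-04). With no count in tumors it entered the test only through the ganglia, which fixed the direction of its call. Catsperz overlaps Kcnk4 on the same strand, so reads may be shared between them. Kcnk3 (TASK1), the relative of Kcnk9, was not called (0.61 ± 0.38, adjusted p = 0.18), with 12.72 TPM in tumor replicate 1 and 39.61 to 45.67 in the other tumors. Kcnk5, Kcnk6, Kcnk13 and Kcnk18 were lower by calls that depended on single libraries. Kcnk5 (-0.92, adjusted p = 0.023) lost its call under 3 alternatives, among them without transgene-free wild-type replicate 3 or tumor replicate 3 (adjusted p up to 0.11). Kcnk13 (-1.04, adjusted p = 0.032) lost it under 8, among them without transgene-free wild-type replicate 3 or tumor replicate 1, 3 or 4 (adjusted p up to 0.14). Kcnk18 (-2.87, adjusted p = 0.044) lost it under 11 of 19, among them without transgene-free wild-type replicate 1 (-2.08) or 3 or any 1 of the tumors (adjusted p up to 0.14). Kcnk6 reached 10.12 TPM in transgene-free wild-type replicate 2 against 0.49 to 3.67 in the other replicates, and its call was lost under 8 alternatives, among them without that library (adjusted p up to 0.17) or without tumor replicate 1, 3 or 4.

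**Figure D4:**
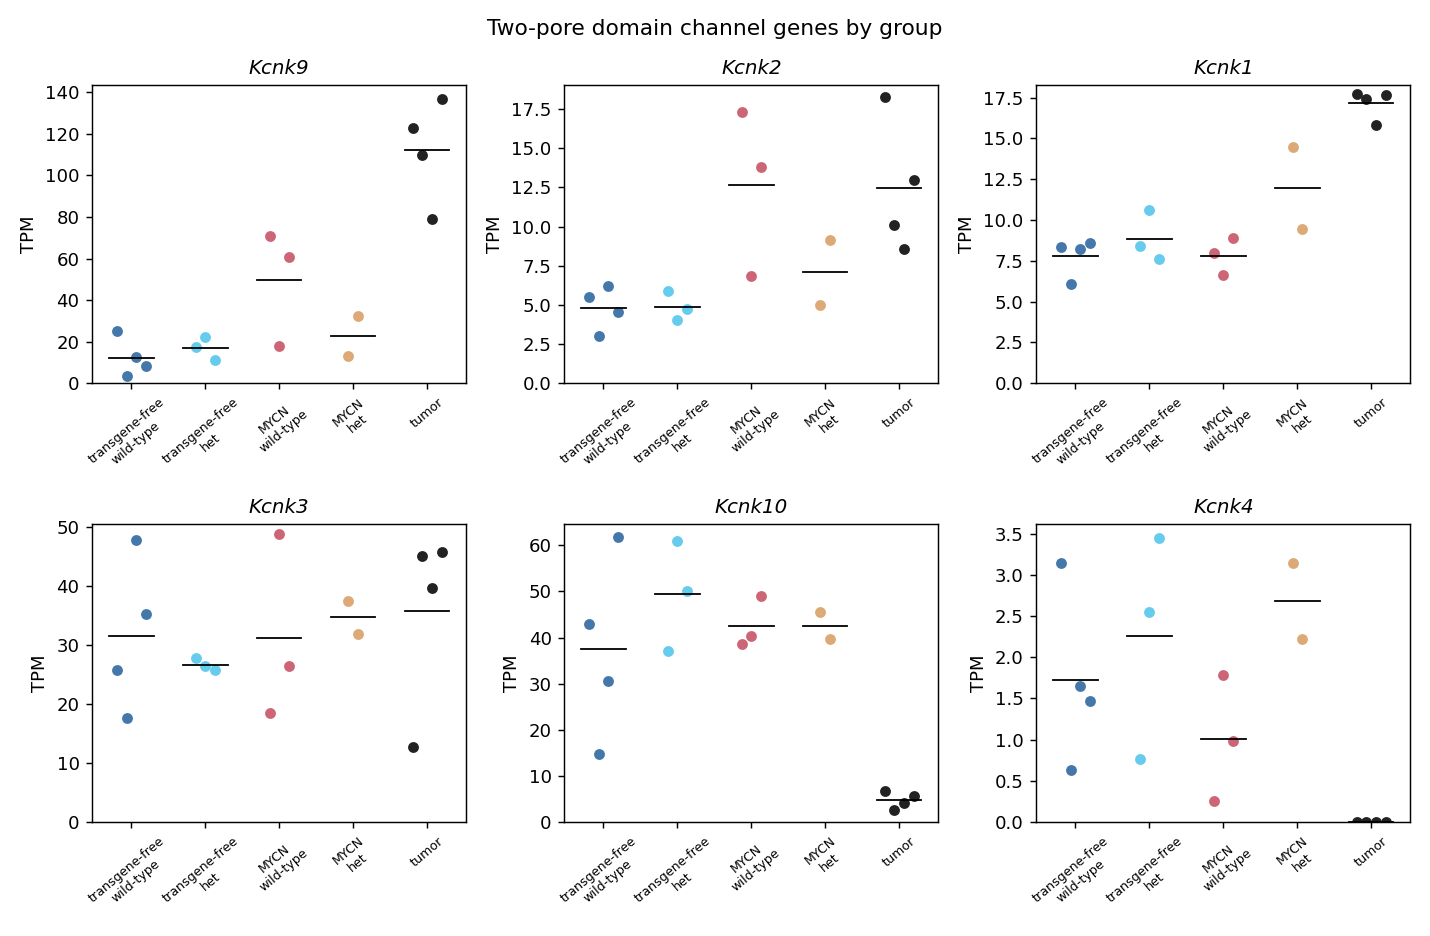
TPM of 6 genes of the 2-pore domain class in each library (points) with the group mean (lines), for the 5 groups. In tumors Kcnk9 has a mean of 112 TPM, Kcnk2 12.5 and Kcnk1 17.1, while Kcnk10 has 4.73 and Kcnk4 is at 0 in all 4.

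Of 14 tested inward rectifiers 10 were not called, 3 were lower and 1 was higher, where 30.7% of all genes were lower and 27% higher. Kcnj10 (Kir4.1), the potassium buffer of satellite glia, was at 16.15 to 40.27 TPM in transgene-free wild-type ganglia and 2.31 to 7.07 TPM in tumors (-2.48 ± 0.42, adjusted p = 2.2e-04), beside the glial markers at 4707 to 8364 and 959 to 4022 summed TPM. Kcnj8 (Kir6.1), a subunit of pericytes and smooth muscle, was lower at -2.22 ± 0.62, or -1.41 without transgene-free wild-type replicate 2, which had 22.74 TPM against 3.38 to 10.68 in the others. Summed pericyte and smooth muscle markers were 100 to 512 TPM in those ganglia and 42.3 to 207 in tumors. Abcc9, its sulfonylurea receptor partner, had overlapping groups with means of 13.6 ± 13.6 and 2.56 ± 0.628 TPM (-2.04 ± 0.64, adjusted p = 0.014), and its call was lost without the same library (-1.05, adjusted p = 0.091). Kcnj2 was lower as well (-1.64 ± 0.54, lost without transgene-free wild-type replicate 3 or tumor replicate 2 or 3), and Kcnj13 and Kcnj16 were not called.

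Among the G protein-gated rectifiers, which open when Gi-coupled receptors release beta-gamma subunits, Kcnj3 (11.3 ± 5.66 and 7.26 ± 5.09 TPM), Kcnj9 (1.06 to 4.58 and 0.83 to 2.16 TPM) and Kcnj5 (0 to 0.27 and 0 to 0.02 TPM) were not called. Kcnj3 was uneven in tumors, at 0.73 TPM in replicate 3 and 6.71 to 12.99 in the others. Kcnj6 (GIRK2) had no count in any of the 4 transgene-free wild-type ganglia and 16, 234, 132 and 126 counts in the tumors. It was at least 22.3-fold higher in tumors against a floor of 3 counts per library (adjusted p = 4.9e-04), and it entered the test only through the groups in which it was present. Transgene-free heterozygous ganglia had 0, 0.61 and 0.13 TPM.

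The tested electrically silent and Kcne subunits were each under 5 TPM in every library except Kcng2, which reached 8.37 TPM. Kcng3, which forms channels only with other subunits, had no count in any tumor and was at least 18.0-fold lower there than in transgene-free wild-type ganglia (0.24 to 3.32 TPM, adjusted p = 2.6e-04), or at least 7.74-fold without replicate 2, which held the highest value. Like Kcnk4, it entered the test only through the ganglia and could be called in no other direction. Kcng4 (-3.88 ± 0.69, or -5.19 without tumor replicate 1) and Kcns2 (-2.39 ± 0.68, lost on the log2(TPM + 1) scale) were lower, and Kcnf1, Kcng1, Kcng2, Kcns3, Kcnv1 and the 3 tested Kcne genes were not called. Kcng2 had 3.83 to 8.37 TPM in 3 tumors and 0.24 in tumor replicate 1. Kcnu1 and Kcnrg were not called either.

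The MYCN transgene in ganglia was tested against transgene-free ganglia of the same Runx1t1 genotype. In Runx1t1 wild-type ganglia 3 of 87 members passed, where 0.936% of all genes did, and all 3 were higher (0.834% of all genes were called higher and 0.102% lower). These were Kcnip1, Kcnj6 and Kcnmb2. In the transgene-free wild-type ganglia they had 0 to 8, 0 and 0 to 1 counts, so they passed the filter on low counts only through groups in which they are higher, and the direction of these calls was fixed by that. Kcnip1, a calcium sensor of Kv4 channels, was at 0.43, 0.21, 0 and 0.28 TPM in transgene-free wild-type ganglia, at 54.68, 3.65 and 32.65 TPM in MYCN wild-type replicates 1, 3 and 4, and at 26.5, 27.18, 18.7 and 20.09 TPM in tumors. All MYCN wild-type ganglia and all tumors were above the transgene-free ganglia, with log2 fold changes of 7.28 ± 1.02 (adjusted p = 0.026) and 7.25 ± 1.00 (adjusted p = 4.9e-05).

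Kcnj6 was at 4.04, 1.14 and 2.59 TPM in MYCN wild-type replicates 1, 3 and 4, at least 16.1-fold above the transgene-free wild-type ganglia (adjusted p = 0.040), or at least 10.2-fold without replicate 1. Kcnmb2, the beta 2 subunit that makes large calcium-activated channels inactivate, was at 12.72, 0.24 and 7.59 TPM in the same libraries and at 0.47 to 1.81 TPM in tumors. With 516 counts in MYCN wild-type ganglia, 231 in tumors and 1 in transgene-free wild-type ganglia, the pooled ratios were 602 (95% exact interval 108 to 23810) and 145 (25.8 to 5755), intervals that cover counting error only. With 1 MYCN wild-type ganglion left out the former was 434 to 907, the highest without replicate 3. The adjusted p was 0.038 for MYCN wild-type ganglia and 0.0026 for tumors, the latter lost on the log2(TPM + 1) scale. Kcnmb4, the abundant beta subunit of ganglia, was at 97.77 to 241.8 TPM in MYCN wild-type ganglia and was not called there (-0.74 ± 0.36).

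All 3 calls rested on few libraries. They were lost without MYCN wild-type replicate 1 (adjusted p = 0.088 for Kcnip1 and 0.23 for the other two) or replicate 4, and without transgene-free wild-type replicate 1, 3 or 4. Without MYCN wild-type replicate 1 the log2 fold change of Kcnip1 was 6.41. No member passed when the fit held only these 2 groups, with a replicate block, or with only libraries over 20000000 counts. Without MYCN wild-type replicate 3, which lay nearest to the transgene-free ganglia, 9 members passed, and DESeq2 called 8. The share of all genes called is not given for either setting, so these counts are not a result about the members. Kcnh4, Kcnk9, Kcnk2 and Kcnc1 were higher and Kcnh1 was lower in both of these, and in the fit as reported their adjusted p was 0.095, 0.082, 0.073, 0.095 and 0.10. Kcnh4 was at 6.63, 0.97 and 3.78 TPM in MYCN wild-type ganglia and at 0.05, 0.42, 0 and 0.71 TPM in transgene-free ones, and in tumors it was higher at 1.71 to 6.03 TPM (3.80 ± 1.03, adjusted p = 0.0064, or 4.79 without transgene-free wild-type replicate 4), a call that was lost with only libraries over 20000000 counts (adjusted p = 0.055).

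**Figure D5:**
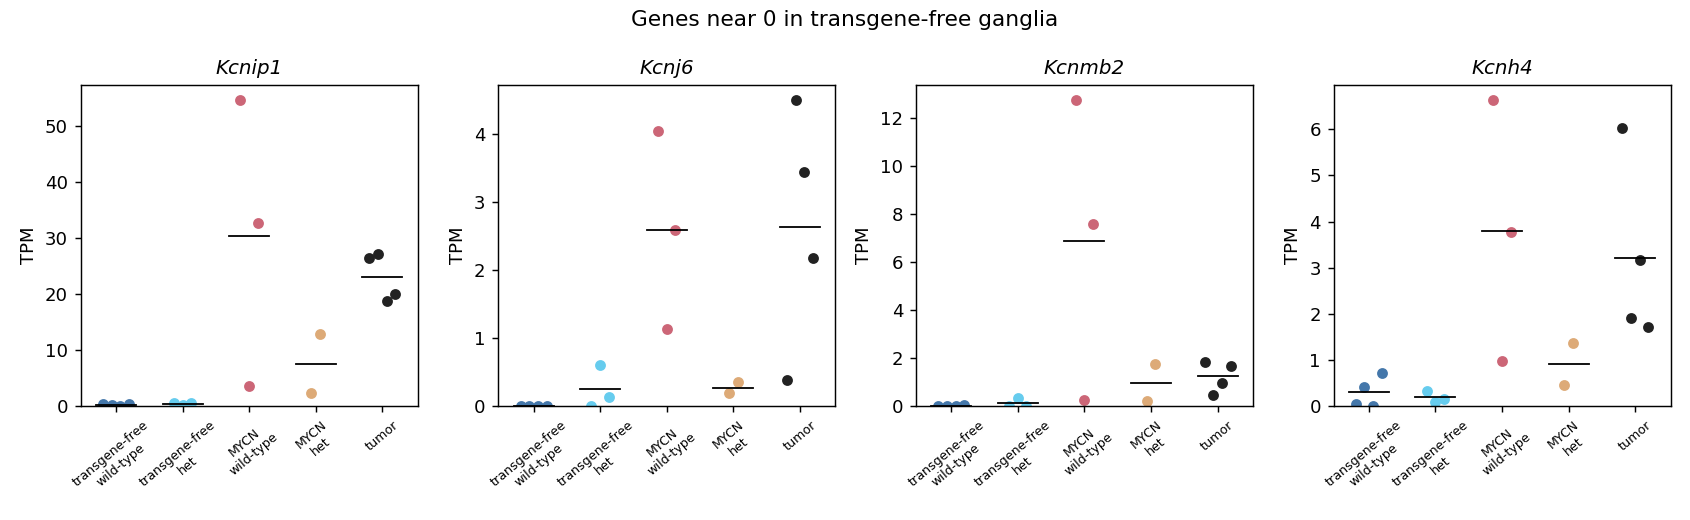
TPM of Kcnip1, Kcnj6, Kcnmb2 and Kcnh4 in each library (points) with the group mean (lines), for the 5 groups. All 4 genes are under 1 TPM in every transgene-free ganglion, and the 3 MYCN wild-type ganglia spread widely, with Kcnip1 from 3.65 to 54.68 TPM.

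The promoters of the 3 genes called higher in MYCN wild-type ganglia, and of Kcnh4, which was not called there in edgeR (adjusted p = 0.095), are shown because MYC family proteins are known to bind the E-box CACGTG. Each run gives the 250 bases before a RefSeq transcription start (GRCm38.p6), 5′ to 3′ on the gene's strand, with any CACGTG or CAGCTG in capitals. For Kcnj6 (2 starts) and Kcnip1 (3 starts) the start farthest upstream is shown.
Kcnj6: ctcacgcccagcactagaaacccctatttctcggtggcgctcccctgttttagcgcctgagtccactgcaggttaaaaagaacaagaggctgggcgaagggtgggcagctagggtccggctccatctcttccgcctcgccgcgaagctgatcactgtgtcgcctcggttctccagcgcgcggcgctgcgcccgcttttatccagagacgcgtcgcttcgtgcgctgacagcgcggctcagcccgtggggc
Kcnip1: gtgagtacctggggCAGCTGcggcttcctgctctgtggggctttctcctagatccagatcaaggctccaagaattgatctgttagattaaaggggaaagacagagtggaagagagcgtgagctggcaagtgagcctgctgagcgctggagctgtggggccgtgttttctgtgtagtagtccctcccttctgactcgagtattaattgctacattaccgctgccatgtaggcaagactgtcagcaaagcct
Kcnmb2: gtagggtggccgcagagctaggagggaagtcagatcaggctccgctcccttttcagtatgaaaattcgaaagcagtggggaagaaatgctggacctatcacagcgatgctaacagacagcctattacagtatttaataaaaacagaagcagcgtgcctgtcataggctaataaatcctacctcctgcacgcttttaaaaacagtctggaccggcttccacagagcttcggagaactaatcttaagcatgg
Kcnh4: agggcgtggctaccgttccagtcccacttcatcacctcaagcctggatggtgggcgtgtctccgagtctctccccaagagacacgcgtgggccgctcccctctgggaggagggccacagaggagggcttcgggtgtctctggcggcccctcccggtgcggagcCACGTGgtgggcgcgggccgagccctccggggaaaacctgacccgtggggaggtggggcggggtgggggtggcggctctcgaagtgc
The windows lie at chr16:94997697-94997946 (Kcnj6, minus strand), chr11:33993194-33993443 (Kcnip1, minus), chr3:31902453-31902702 (Kcnmb2, plus) and chr11:100759779-100760028 (Kcnh4, minus). CACGTG, which reads the same on both strands, was found only in the Kcnh4 window, 87 bases before the start. CAGCTG, a related E-box that is also its own reverse complement, was found in the Kcnip1 window, 236 bases before the start. Of 88 such windows that RefSeq gives for 64 of the members, 6 held CACGTG (6.82%, against 6.02% of all 32851 windows) and 20 held CAGCTG (22.7%, against 13% of all windows). CAGCTG was in 38.2% of the windows of members not called in tumors against transgene-free wild-type ganglia, in 20% of those called higher and in 10.5% of those called lower, and 4 of the 20 belong to Kcnc2. A match is a description of these letters and not a binding site.

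The 5 MYCN ganglia differed greatly from each other, and of 6 members looked at, 5 differed in the same order. Ordered by the summed TPM of 6 proliferation markers, they were Runx1t1 het replicate 1 (84.6), wild-type replicate 3 (110), het replicate 2 (225), wild-type replicate 4 (566) and wild-type replicate 1 (1054). Kcnip1 followed at 2.26, 3.65, 12.81, 32.65 and 54.68 TPM, and Kcnk9 at 13.07, 17.8, 32.39, 60.99 and 70.62 TPM. Kcnmb2, Kcnh4 and Kcnk2 had the same order, and Kcnj6 did not. Transgene-free ganglia had 61.7 to 285 TPM of proliferation markers and tumors 1270 to 1496. This order is a description over 5 libraries, and the share of all genes with the same order is not given. No members other than Kcnip1, Kcnk9, Kcnmb2, Kcnh4, Kcnk2 and Kcnj6 were looked at. All of them had been called higher in tumors than in transgene-free wild-type ganglia, so the choice favored such an order. The part of dividing cells in these differences was not tested.

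In Runx1t1 heterozygous ganglia the transgene gave no call among the 87 members, where 0% of all genes were called in edgeR. At an unadjusted p under 0.05 were 1.15% of members and 1.45% of all genes. A single member had an unadjusted p under 0.05, Kcnip1, at 2.26 and 12.81 TPM with MYCN and 0.56, 0.19 and 0.48 TPM without (4.20 ± 1.05, adjusted p = 1), and DESeq2 called it (adjusted p = 0.035). The difference between the 2 transgene effects, tested as an interaction, gave no call among members or among all genes (0%). In this test 5 members were at an unadjusted p under 0.05 (5.75%, against 5.62% of all genes). DESeq2 called 1 member there, Kcnj6 (adjusted p = 0.024), which in edgeR had an adjusted p of 0.85. Kcnc1 was at 6.82, 4.41 and 7.04 TPM in MYCN wild-type and 2.61 to 4.35 in transgene-free wild-type ganglia, but at 3.57 and 3.43 in MYCN het and 3.93 to 4.66 in transgene-free het ganglia (interaction -1.35 ± 0.44, adjusted p = 0.85).

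Comparing tumors with MYCN wild-type ganglia, which share transgene and Runx1t1 genotype, gave mostly lower members. Of the 87 members 36 passed, where 34.5% of all genes did, with 35 lower (20.5% of all genes) and 1 higher (14% of all genes). Kcnk1 was the member that rose (1.52 ± 0.21, adjusted p = 1.8e-04), from 6.61 to 8.89 TPM in MYCN wild-type ganglia to 15.84 to 17.7 TPM in tumors. Kcnk9, at 17.8 to 70.62 TPM in those ganglia, was below every tumor but not called (1.55 ± 0.58, adjusted p = 0.053). Kcnip1 (-0.03 ± 0.76), Kcnj6 (0.48, adjusted p = 0.74), Kcnh4 (0.08 ± 0.98) and Kcnk2 (0.33 ± 0.38) were not called either.

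The losses against MYCN wild-type ganglia included Kcnc4 (-6.06 ± 0.48), Kcna1 (-5.75 ± 0.91, or -4.29 without MYCN wild-type replicate 3), Kcnh1 (-5.11 ± 0.38), Kcnq3 (-4.78 ± 0.51, or -5.64 without tumor replicate 1), Kcnmb4 (-3.95 ± 0.39) and Kcnk10 (-2.79 ± 0.39). Kcnk4 was at least 6.62-fold (4.09-fold without MYCN wild-type replicate 3) and Kcng3 at least 3.60-fold lower. In ganglia, Kcnq3 was not called for the transgene, being at 37.09, 68.49 and 56.72 TPM in MYCN wild-type ganglia (-0.72 ± 0.46 against transgene-free ganglia, adjusted p = 0.40).

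Against MYCN heterozygous ganglia (n = 2), 40 members passed, where 45.5% of all genes did, 34 of them lower (23.5% of all genes) and 6 higher (22% of all genes). The 6 were Kcnj6, Kcnk9, Kcnab3, Kcnk2, Kcnc1 and Kcnk1. Of these, Kcnj6, Kcnc1 and Kcnk1 lost their call without heterozygous replicate 2, and all but Kcnk1 without replicate 1. Such a fit keeps 1 heterozygous library, so its spread comes from the other groups alone. The Kcnj6 call (edgeR adjusted p = 0.0497) was also lost without tumor replicate 2, 3 or 4, and with a replicate block or upper-quartile scaling, among others. That of Kcnk2 was also lost without tumor replicate 1 or 4. Kcnk2, Kcnc1 and Kcnk1 lost theirs on the log2(TPM + 1) scale, and Kcnab3 with a term for library depth. Kcnk9 was at 13.07 and 32.39 TPM in the heterozygous MYCN ganglia (2.81 ± 0.74, or 3.64 without heterozygous replicate 2). Among the falls were those of Kcnc4 (-6.91 ± 0.51), Kcnh1 (-6.65) and Kcnq3 (-6.03 ± 0.55, or -6.88 without tumor replicate 1). All comparisons with tumors use the same 4 tumors, and so are not independent of each other.

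Loss of a Runx1t1 allele was tested within each MYCN genotype. In MYCN ganglia no member passed (edgeR), where 0.012% of all genes did (0.012% higher), with 11 members at an unadjusted p under 0.05, which is 12.6% as it is for all genes. Of the 11, 8 were higher and 3 lower in heterozygous ganglia, and the shares of all genes by direction at this threshold are not given. Kcnh1 was at 31.4 and 20 TPM in heterozygous and at 5.27, 11.52 and 8.15 TPM in wild-type MYCN ganglia, without overlap (1.54 ± 0.38, adjusted p = 0.24), and Kcnq3 at 156.98 and 116.17 against 37.09, 68.49 and 56.72 TPM (1.24 ± 0.53, adjusted p = 0.38). Kcnmb4 (0.96 ± 0.42), Kcnq5 (1.06 ± 0.34) and Kcnj9 (2.11 ± 0.61) were also higher and not called after adjustment.

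Kcnj6 (-3.40 ± 1.46), Kcnip1 (-2.17 ± 1.00) and Kcnc1 (-0.97 ± 0.34) were lower in the heterozygous MYCN ganglia at an unadjusted p under 0.05, with adjusted p of 0.38, 0.39 and 0.33. DESeq2 called 2 members, Kcnh1 (adjusted p = 0.020) and Kcnj9 (adjusted p = 0.029), and leaving out MYCN wild-type replicate 1, 3 or 4 gave 0 or 1 call. Summed proliferation markers were 84.6 and 225 TPM in the heterozygous and 110 to 1054 TPM in the wild-type MYCN ganglia, and neuron markers 28599 and 33092 against 15859 to 20756 TPM. Their part in these differences was not tested. In transgene-free ganglia the Runx1t1 allele gave no call among members or all genes (0%). Kcnj6 and Kcnj8 were at an unadjusted p under 0.05, which is 2.3% of members against 4.12% of all genes.

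Tumors were not uniform in these genes. Of 54 members with a mean of at least 1 TPM in tumors, the highest tumor was at most 2 times the lowest for 14, among them Kcnk1 (1.12 times), Kcnk5 (1.16 times) and Kcnk9 (1.73 times). For 15 it was more than 5 times the lowest, and the matching counts over all genes are not given. Kcnj12, a strong inward rectifier, ran from 2.18 to 25.62 TPM. Tumor replicate 1 stood at the end of several of these spreads, with the highest Kcnb2 (5.43 TPM), Kcnd2 (4.31) and Kcnq3 (3.55) and the lowest Kcng2 (0.24) and Kcnk3 (12.72) of the 4, and it also held the highest sum of sympathetic neuron markers, 14029 against 5401 to 6704 TPM.

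Genes that lie together did not always move together. Within 100 kb, 9 pairs of members are annotated, 4 of which overlap. Kcna1 and Kcna6 on chromosome 6 were both lower, whereas Kcnj10 was lower and its neighbour Kcnj9, 11892 bases away on chromosome 1, was not called. Kcnmb1 lies inside Kcnip1 on the other strand and was at 0 to 1 TPM in every library. Of the 88 members, 43 share bases with another annotated gene, and their values can hold reads of it.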

How the data were processed

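RNA from 16 libraries (12 celiac ganglia, 4 tumors) was sequenced with a stranded total RNA kit according to the protocol, while the labels give the molecule as polyA RNA. According to the study's methods and processing notes, the authors used STAR for alignment to the mm10 build and RSEM for estimates per gene. The deposited expected counts are the authors' RSEM estimates without normalization, and the deposited TPM values are RSEM's, scaled by the authors for transcript length and to a common sum per library. The annotation and the use of strand in counting are not given in the sources used here. The column headers give the Runx1t1 genotype as Het or Hom, and Hom was read as 2 wild-type alleles.

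Groups were taken from the sample labels. Expected counts were rounded. In R 4.3.3, edgeR 4.0.16 removed genes with low counts (filterByExpr), normalized by TMM and fitted all 5 groups with the quasi-likelihood model, in 8 contrasts, each with Benjamini-Hochberg adjustment over all 16665 genes tested and a threshold of 0.05. A fold against a group with no counts is given as a bound against 3 counts per library, after scaling by library size. TPM were used for levels. Alternatives used DESeq2 1.42.0 and limma 3.58.1 on log2(TPM + 1), other filters and scalings, added terms, and the removal of each library. The tests were checked on simulated data, where DESeq2 made more false calls than edgeR in both comparisons simulated. Positions are from GENCODE vM21 (GRCm38) and promoters from RefSeq.

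The members, gene lists and tests were chosen with earlier results of these data known. Named in full are, by rule, up to 10 genes in each direction with the largest called change and no overlap in tumors against transgene-free wild-type ganglia (mean of at least 1 TPM in a group), up to 5 in each direction in every other contrast, the most abundant member of each letter, and fixed lists of M channel, Kv, calcium-activated, G protein-gated, glial, leak and eag genes. Others are named to account for a count and were chosen after their values were seen. Some genes are not reported here by name, though sums and counts over all members include them.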

Additional observations from a re-analysis of the deposited data

Results flagged for a closer look

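In groups of 4 libraries, 8 values of members named by rule stood far from the other 3 (Dixon's test at the 95% level). Of the 104 groups looked at, chance marks about 1 in 20. Members named for other reasons, such as Kcnn4, were not looked at. Transgene-free wild-type replicate 2, the library with lymphocyte markers, held 3 of these 8 values. They were Kcnf1 at 1.99 TPM against 0 to 0.04, Kcnk1 at 6.09 against 8.23 to 8.58, and Kcnt1 at 21.37 against 37.37 to 40.48. Tumor replicate 3, the library with hepatocyte markers, held Kcnc1 at 2.98 TPM against 5.83 to 6.15 and Kcnk1 at 15.84 against 17.4 to 17.7. Kcnk3 was at 12.72 TPM in tumor replicate 1 against 39.61 to 45.67. Kcnj5 in tumor replicate 2 (0.02 TPM) and Kcnmb2 in transgene-free wild-type replicate 4 (0.03 TPM) were alone above 0 in their groups, at 2 counts and 1 count.

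Kcnc1 moved in opposite directions with the transgene in the 2 Runx1t1 genotypes, higher in every MYCN wild-type and lower in every MYCN heterozygous library than in any transgene-free library of that genotype. The interaction was -1.35 on the log2 scale and did not pass the test across all genes.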

How the results depend on the processing

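For tumors against transgene-free wild-type ganglia, 34 to 54 members passed under all alternatives run, 34 when only 43 members with at least 10 counts in every library were tested, and 43 to 52 with each library left out. On the log2(TPM + 1) scale 7 were higher and 43 lower, and the median of all genes there was -0.36. For tumors against MYCN wild-type ganglia 23 passed with at least 10 counts in every library, where fewer members were tested. For MYCN against transgene-free Runx1t1 wild-type ganglia the 3 calls became 0 with at least 10 counts in every library, with a replicate block, with a fit of these 2 groups alone and with only libraries over 20000000 counts (the last chosen after seeing the data), 8 with DESeq2 and 1 with limma, and 0 to 9 with a library left out. DESeq2 gave 1 call for MYCN in Runx1t1 heterozygous ganglia, 2 for the Runx1t1 allele in MYCN ganglia and 1 for the interaction. For the Runx1t1 allele in MYCN ganglia, leaving out a wild-type library gave 0 to 1 call. The cause of these shifts was not tested, except that the filter left fewer members. Shares of all genes called under these alternatives are not given.

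Same-numbered libraries of different groups did not vary together (median correlation -0.01, from -0.32 to 0.32, 5 of 16 libraries closest to their own number), so the numbers were not taken as pairs. With the replicate block 51 members passed for tumors against transgene-free wild-type ganglia. Over 94 calls of the members named by rule, 1560 values under alternatives kept the call, 103 lost it and none changed sign. Members named only to account for a count, such as Kcnab1, Kcnk6, Kcnk13 and Kcnk18, whose calls were weak, are not in this tally. A term for sex, added after seeing the data, left 46 calls against transgene-free wild-type ganglia. With at least 10 counts in 4 libraries 84 genes would be members, and with at least 50 counts in 2 libraries 68. Depth limits genes with few counts, such as Kcnj6, Kcnmb2, Kcng3 and Kcnk4.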
